A study of Mus musculus with 6 samples.

Results

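Small nucleolar RNA host genes are transcribed into long RNAs whose introns carry small nucleolar RNAs (snoRNAs). The 9 host genes described here, Gas5, Snhg1, Snhg3, Snhg5, Snhg6, Snhg8, Snhg12, Snhg15 and Zfas1, were taken by gene name from the 54532 genes in the count table. They were measured by RNA sequencing in 6 cultures of CD4+ T cells from spleens of young adult male C57BL/6 mice, activated through CD3 and CD28 and grown for 72 h under Th1 conditions with IL-2, IL-12 and an antibody against IL-4. 3 cultures (Th1) received vehicle, 0.1% DMSO, and 3 cultures (ALX5407) received 500 nM ALX-5407, which blocks GlyT1, a glycine transporter of the cell membrane. The study's RNA sequencing methods give a shorter exposure to ALX-5407 than the 72 h of the labels. Its cell culture methods give 72 h of stimulation before cells were harvested for sequencing. The sources used here state no genetic change in these mice, and no other agent separated the groups. The 3 libraries of a group are labelled as biological replicates, but nothing says that they came from separate animals, so p-values measure the spread between these libraries.

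The spliced exons of a host RNA generally encode no conserved protein. Small nucleolar RNAs are released from the excised introns and are bound by a set of core proteins. C/D box snoRNAs guide methylation of the ribose in ribosomal RNA, and H/ACA box snoRNAs guide the change of uridine to pseudouridine. Many host RNAs begin with a terminal oligopyrimidine (TOP) sequence, a feature they share with the mRNAs of ribosomal proteins and translation factors. The spliced RNAs of several hosts, Gas5 among them, are engaged by ribosomes and removed by nonsense-mediated decay, so that their level depends on translation as well as on transcription. Gas5 was named for its accumulation in growth-arrested cells, and it has been studied in T cells.

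To show what these genes carry, annotated snoRNAs are printed from GENCODE M21 (GRCm38), 5′ to 3′ on the strand of the host. In total, 33 annotated snoRNA genes lay inside the 9 hosts on the same strand, 10 of them in Gas5, 8 in Snhg1, 5 in Snhg12, 3 in Zfas1, 2 each in Snhg3 and Snhg5, and 1 each in Snhg6, Snhg8 and Snhg15. Snord80 and Snora16a are each counted as 2 overlapping annotation entries. In the C/D box RNAs, capitals mark a C box (TGATGA within 20 bases of the 5′ end) and a D box (CTGA within 20 bases of the 3′ end), both searched on the RNA strand alone.
Snord47: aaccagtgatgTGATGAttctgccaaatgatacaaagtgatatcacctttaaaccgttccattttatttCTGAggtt
Snord80: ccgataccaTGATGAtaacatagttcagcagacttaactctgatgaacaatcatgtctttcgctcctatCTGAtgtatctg
Gm23246: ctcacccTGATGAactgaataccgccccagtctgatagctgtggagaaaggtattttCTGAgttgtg
Snord87: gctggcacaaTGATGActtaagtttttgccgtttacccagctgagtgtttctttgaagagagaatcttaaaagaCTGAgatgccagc
Snord99: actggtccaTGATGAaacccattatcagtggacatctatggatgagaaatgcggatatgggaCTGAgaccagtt
Snord47 and Snord80 lie in Gas5, Gm23246 in Snhg1, Snord87 in Snhg6 and Snord99 in Snhg12. These letters were found in 20 of the 33 (60.6%) and in 20.5% of all 1507 snoRNA transcripts of the annotation. A further 7 of the 33 (21.2%) ended in an ACA box 3 bases from the 3′ end, against 18% of all snoRNA transcripts.

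Hosts that carry only H/ACA box RNAs are represented by Snora24 of Snhg8 and Snora9 of Snhg15, with the ACA box in capitals.
Snora24: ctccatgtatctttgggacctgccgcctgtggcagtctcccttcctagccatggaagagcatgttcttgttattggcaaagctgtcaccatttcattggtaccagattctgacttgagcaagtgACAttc
Snora9: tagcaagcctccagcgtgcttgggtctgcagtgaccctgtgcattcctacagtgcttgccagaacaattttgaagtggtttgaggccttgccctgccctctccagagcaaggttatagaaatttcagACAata
Snora24 lies at chr3:123507937-123508066 and Snora9 at chr11:6528033-6528165, both on the − strand.

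Related RNAs inside a single host are shown for Snhg5, whose copies are nearly identical, and for Zfas1, whose RNAs are less alike. Reads from copies as close as those of Snhg5 are hard to place.
Snord50a: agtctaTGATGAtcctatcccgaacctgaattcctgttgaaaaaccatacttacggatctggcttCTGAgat
Snord50b: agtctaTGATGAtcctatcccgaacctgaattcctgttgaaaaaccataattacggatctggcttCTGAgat
Gm25878: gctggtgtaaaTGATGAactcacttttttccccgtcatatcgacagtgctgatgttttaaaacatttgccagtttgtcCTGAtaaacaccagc
Gm23201: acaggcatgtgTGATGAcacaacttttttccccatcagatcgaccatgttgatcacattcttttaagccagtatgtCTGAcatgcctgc
Snord12: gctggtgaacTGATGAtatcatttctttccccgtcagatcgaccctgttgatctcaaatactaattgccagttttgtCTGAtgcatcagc
Snord50a and Snord50b of Snhg5 differed at 1 of 72 bases, C50A, counted from the 5′ end of Snord50a. The 3 RNAs of Zfas1 had lengths of 93, 89 and 90 bases, and the longest run that all 3 shared was TTTCCCC. In Snhg3, the H/ACA box RNAs Snora73a and Snora73b, which take part in the processing of small subunit ribosomal RNA, were 205 bases long and differed at 7 positions.

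Start regions were examined for the pyrimidine tract that TOP RNAs begin with. The RefSeq promoter table (GRCm38.p6) held 8 of the 9 genes, all but Snhg6, with 9 start sites because Gas5 had 2. A tract was counted where a C was followed by at least 4 more C or T on the transcribed strand, a run of 5 or more, within 30 bases on either side of the start. 5 of the 9 windows held such a run, which is printed in capitals.
Gas5: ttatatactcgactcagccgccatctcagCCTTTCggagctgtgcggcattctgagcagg
Snhg3: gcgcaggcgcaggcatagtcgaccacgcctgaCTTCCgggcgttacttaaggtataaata
Snhg5: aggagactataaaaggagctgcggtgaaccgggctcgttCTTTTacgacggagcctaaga
Snhg8: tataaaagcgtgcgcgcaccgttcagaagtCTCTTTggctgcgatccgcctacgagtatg
Snhg12: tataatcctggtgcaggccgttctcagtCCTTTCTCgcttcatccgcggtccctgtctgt
The windows lie at chr1:161035136-161035195 on the + strand, chr4:132353657-132353716, chr9:88522868-88522927 and chr3:123508307-123508366 on the − strand, and chr4:132308648-132308707 on the + strand. Of 32851 promoters in the table, 59.1% held the same run. The search takes a run anywhere in the window, so it cannot tell TOP starts from other starts. The printed run covers the annotated start in Gas5, Snhg8 and Snhg12 and lies after it in Snhg3 and Snhg5. How often a run covers the start over all promoters was not counted. The E box CACGTG, a binding sequence of MYC and related factors that reads the same on both strands, was found in the 300-base promoter of Snhg15 alone, against 7.15% of all promoters.

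The host genes were lower with ALX-5407. Of the 9, Snhg3 had no counted reads in any library and was not tested. The other 8 passed the filter on low counts and were all lower, with log2 fold changes from -1.33 to -0.53 and a median of -0.86. Groups were compared by the quasi-likelihood test of edgeR, p-values were adjusted by the Benjamini-Hochberg method over all 15938 genes tested, and a call was an adjusted p under 0.05. By this rule 8 host genes were called lower, where 23.2% of all genes tested were called lower. None were called higher in edgeR, DESeq2 or limma-voom, and 0 were higher at an unadjusted p under 0.05, where 24.5% of all genes were called higher. The median log2 fold change of all genes tested was 0.01. Past a log2 fold change of -1, 3 host genes remained, Zfas1, Snhg12 and Snhg1, where 6.68% of all genes tested passed both thresholds. For all 8 genes, every ALX5407 library lay below every Th1 library, which held for 27.1% of all genes tested. Fewer cells that express a gene and less RNA of it per cell cannot be told apart in these bulk libraries.

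**Figure D1:**
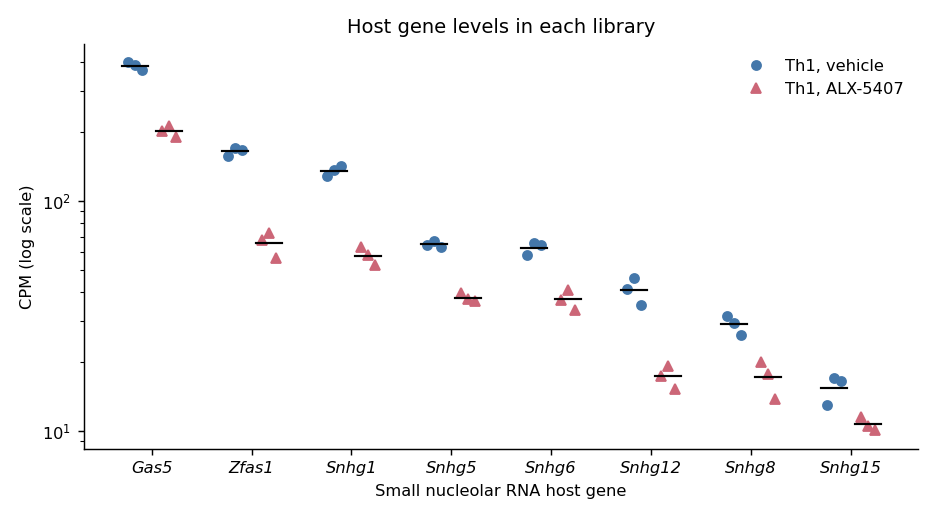
Level of the 8 host genes with reads in each library in CPM (log axis), for 3 vehicle libraries (circles) and 3 ALX-5407 libraries (triangles), with the mean of each group as a bar. Every triangle lies below every circle of the same gene, from Gas5, whose mean fell from 387 to 201 CPM, to Snhg15, whose mean fell from 15.4 to 10.7 CPM.

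Together the reads on these genes made up 0.0869%, 0.0888% and 0.0886% of the Th1 libraries, and 0.0466%, 0.0475% and 0.0418% of the ALX5407 libraries. The mean share was 0.0881% ± 0.00101 (SD, n = 3) with vehicle and 0.0453% ± 0.00301 (SD, n = 3) with ALX-5407. Within this pool, Gas5 held the most reads in every library, 42.0% to 44.9% with vehicle and 44.0% to 46.4% with ALX-5407. The part held by Zfas1 was 17.5% to 18.9% with vehicle and 13.9% to 15.5% with ALX-5407. Snhg15 held 1.45% to 1.85% with vehicle and 2.24% to 2.51% with ALX-5407.

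Gas5 (ENSMUSG00000053332, chromosome 1, 161034422 to 161038539, + strand, GRCm38) received the most reads of these hosts. It was counted 13037, 12184 and 11472 times in the Th1 libraries and 7122, 7872 and 6624 times in the ALX5407 libraries. In CPM, which are read counts scaled to the size of the library, these were 400.4, 389 and 373 CPM with vehicle and 202, 211 and 189 CPM with ALX-5407. The groups were far apart compared with their own spread, and the highest treated library lay well under the lowest vehicle library. The mean fell from 387 ± 13.8 to 201 ± 11.1 CPM (SD, n = 3 each), which edgeR put at -0.95 on the log2 scale with a standard error of 0.0716 (adjusted p = 3.605e-08).

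Zfas1 (ENSMUSG00000074578, chromosome 2, 167062934 to 167065862, + strand) starts inside Znfx1, 81 bases from the start of that gene on the other strand, and carries RNAs of the Snord12 family printed above. Its levels were 156, 171 and 167 CPM with vehicle and 67.7, 72.3 and 56.6 CPM with ALX-5407. On the log2 scale this was the largest fall among the host genes, from 165 ± 7.5 to 65.6 ± 8.06 CPM (SD, n = 3 each). The log2 fold change in edgeR was -1.33, with a standard error of 0.0873 (adjusted p = 7.849e-09).

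Snhg1 (ENSMUSG00000108414, chromosome 19, 8723475 to 8726443, + strand) is the U22 host gene and carries Snord22. It was present at 128, 136 and 141 CPM with vehicle and at 63.0, 57.9 and 52.6 CPM with ALX-5407. All 3 treated libraries were below all vehicle libraries, with means of 135 ± 6.87 and 57.9 ± 5.19 CPM (SD, n = 3 each). The log2 fold change in edgeR was -1.22, with a standard error of 0.0803 (adjusted p = 7.849e-09).

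Snhg12 (ENSMUSG00000086290, chromosome 4, 132308623 to 132311024, + strand) carries Snora16a, Snora44, Snora61 and Snord99. Its levels were 41.2, 46.4 and 35.4 CPM with vehicle and 17.4, 19.2 and 15.3 CPM with ALX-5407. The vehicle libraries were more scattered than those of Gas5 or Zfas1, yet the lowest of them was still above every treated library. The mean fell from 41.0 ± 5.51 to 17.3 ± 1.96 CPM (SD, n = 3 each), which edgeR put at -1.25 on the log2 scale with a standard error of 0.112 (adjusted p = 2.044e-07).

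A group of moderately changed hosts followed. Snhg5 (ENSMUSG00000097195, chromosome 9, 88521050 to 88522929, − strand), the host of both U50 RNAs, was at 64.5, 67.1 and 62.8 CPM with vehicle and 39.7, 37.5 and 36.6 CPM with ALX-5407. Its log2 fold change in edgeR was -0.77, with a standard error of 0.0756 (adjusted p = 5.122e-07). Snhg6 (ENSMUSG00000098234, chromosome 1, 9941959 to 9944118, − strand), the host of Snord87, was at 58.0, 65.7 and 64.2 CPM with vehicle and 37.1, 41.1 and 33.7 CPM with ALX-5407. The log2 fold change of Snhg6 in edgeR was -0.75, with a standard error of 0.0877 (adjusted p = 3.51e-06). In both genes the groups did not overlap, and mean levels dropped by 41.4% for Snhg5 and by 40.5% for Snhg6.

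The hosts with the fewest reads had the widest errors. Snhg8 (ENSMUSG00000104960, chromosome 3, 123507552 to 123508404, − strand), the host of Snora24, was at 31.4, 29.6 and 26.2 CPM with vehicle and 19.9, 17.6 and 13.7 CPM with ALX-5407. Its log2 fold change in edgeR was -0.77, with a standard error of 0.123 (adjusted p = 8.076e-05). Snhg15 (ENSMUSG00000085156, chromosome 11, 6525591 to 6528760, − strand), the host of Snora9, was at 12.9, 16.9 and 16.4 CPM with vehicle and 11.5, 10.5 and 10.04 CPM with ALX-5407. It had the smallest change of the 8, and the gap between its lowest vehicle library and its highest treated library was narrow. Its counts were 420, 530 and 505 with vehicle and 406, 390 and 352 with ALX-5407, and its log2 fold change in edgeR was -0.53, with a standard error of 0.126 (adjusted p = 0.002406).

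In order of log2 fold change the genes ran Zfas1, Snhg12, Snhg1, Gas5, Snhg5, Snhg8, Snhg6 and Snhg15. Of the 7 steps in this order, 4 were smaller than their combined standard error. Zfas1 and Snhg12 differed by 0.08 (combined standard error 0.142), Snhg12 and Snhg1 by 0.03 (0.138), and Snhg5, Snhg8 and Snhg6 by 0.01 and 0.02 (0.144 and 0.151). The step from Snhg1 to Gas5 was 0.27 (0.108), that from Gas5 to Snhg5 0.18 (0.104) and that from Snhg6 to Snhg15 0.22 (0.153). ALX5407 replicate 3 was the lowest of the 6 libraries for 8 of the 8 genes.

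Per kilobase of exon, the order of levels was different. In CPM per kilobase with vehicle, Gas5 led at 103 ± 3.68, followed by Zfas1 at 56.3 ± 2.56 and Snhg6 at 54.7 ± 3.54, which did not differ beyond their spread. Snhg1 at 45.5 ± 2.31, Snhg5 at 37.4 ± 1.25 and Snhg8 at 34.1 ± 3.11 came next, and Snhg5 and Snhg8 also overlapped. Snhg12 at 17.1 ± 2.3 and Snhg15 at 11.3 ± 1.61 CPM per kilobase were lowest (SD, n = 3 throughout). With ALX-5407, Gas5 still led at 53.3 ± 2.95, but Snhg6 at 32.5 ± 3.24 now stood above Zfas1 at 22.4 ± 2.75. Zfas1, Snhg5 at 21.9 ± 0.931, Snhg8 at 20.02 ± 3.65 and Snhg1 at 19.5 ± 1.75 lay within each other's spread, as did Snhg15 at 7.84 ± 0.553 and Snhg12 at 7.19 ± 0.814. These lengths are merged exons and include intron sequence. GENCODE M21 labels 20 of 25 transcripts of Gas5, 14 of 18 of Snhg1 and 0 of 10 of Snhg12 as retained introns. Even so, the merged exons of Snhg12, 2402 bases, cover its whole span, introns included. Those of Snhg1, Zfas1 and Snhg8 also cover their whole spans.

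Snhg3 (ENSMUSG00000085241, chromosome 4, 132348014 to 132353686, − strand), the host of the Snora73 pair, was listed at 0 in all 6 libraries. Taken alone, a 0 in a single library still allows an expected count of up to 3 there. Most of the exon sequence of Snhg3 was shared. Of 986 exon bases, 71.5% also lay in exons of Gm17300 on the opposite strand, 13.7% in exons of Rcc1 on the same strand and 16.1% in small RNA genes, which left 13.7% to Snhg3 alone. In the other hosts 79.0% to 91.7% of exon bases belonged to no other gene. Gm17300 itself had 18, 8 and 18 reads with vehicle and 12, 7 and 12 with ALX-5407. How reads that overlap more than 1 gene were counted, and whether strand was used, is not given in the sources used here, and the part of overlap in the 0 of Snhg3 was not tested.

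**Figure D2:**
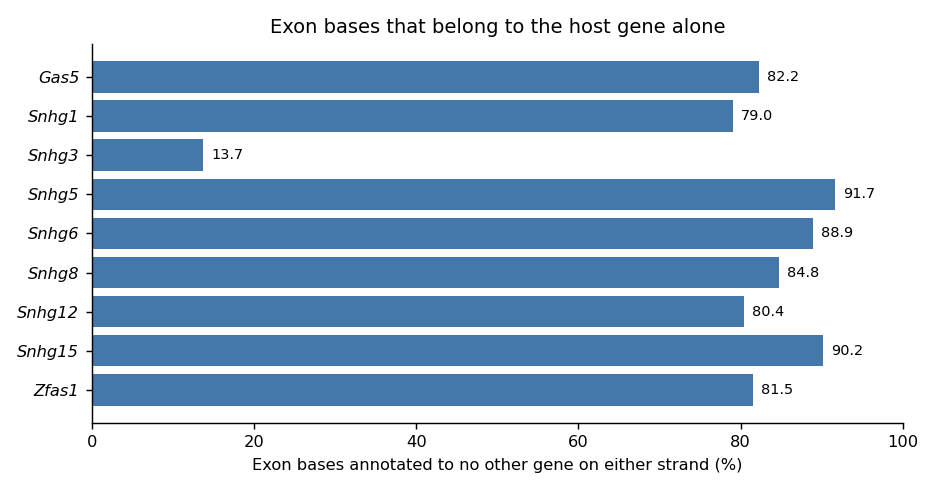
Percent of the merged exon bases of each host gene (GENCODE M21) that are annotated to no other gene on either strand. Snhg3, at 13.7%, stands apart from the other 8 hosts, which lie between 79.0% and 91.7%.

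The small RNAs themselves had almost no counted reads. Of the 33 snoRNA genes inside the hosts, 30 lay wholly within merged host exons, and 1 of 33 had any reads counted to it. This was Snord87 in Snhg6, which lies outside the annotated exons of its host, with 4, 4 and 5 reads with vehicle and 17, 6 and 9 reads with ALX-5407. Among all 1507 snoRNA genes in the table, 317 had a read. How reads that overlap both a host exon and a snoRNA gene were counted is not given. The part of this overlap in the missing counts was not tested. The values above describe the long host RNAs, and the levels of the mature snoRNAs cannot be read from these counts.

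The genes that start beside a host were measured for comparison. Of 6 genes that overlap a host or start within 1000 bases of its start, 5 were tested, 3 rose and 0 fell in edgeR. Over all genes tested, 24.5% were called higher and 23.2% lower. The count of these neighbours that fell was also 0 at an unadjusted p under 0.05 and in DESeq2 and limma-voom. Slc3a2, the heavy chain of CD98 amino acid transporters, starts 106 bases from Snhg1 on the other strand and rose from 274 ± 24.9 to 369 ± 14.8 CPM (SD, n = 3 each). In edgeR this was a log2 fold change of 0.43, with a standard error of 0.0777 (adjusted p = 0.0002541). Znfx1, a helicase with a role in antiviral defence, starts 81 bases from Zfas1 on the other strand and rose from 27.0 ± 1.49 to 37.6 ± 1.31 CPM (SD, n = 3 each). The log2 fold change of Znfx1 in edgeR was 0.48, with a standard error of 0.0842 (adjusted p = 0.0002078). Rcc1, the nucleotide exchange factor of Ran, shares strand and start region with Snhg3 and rose by 0.60 on the log2 scale, with a standard error of 0.0721 (adjusted p = 4.924e-06, edgeR). Zbtb37, a zinc finger gene whose start is 427 bases from that of Gas5 on the other strand, had a log2 difference of 0.14, with a standard error of 0.103 (adjusted p = 0.2911, edgeR). Gm17300 had a log2 difference of -0.68, with a standard error of 0.524 (adjusted p = 0.3098, edgeR), and Mcmdc2, which overlaps the end of Snhg6, had at most 10 reads in a library.

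The ratio of reads within each library gives the same comparison without any scaling. Gas5 had 17.04, 18.1 and 15.5 reads per read of Zbtb37 with vehicle and 7.27, 9.61 and 7.22 with ALX-5407. Snhg1 had 0.432, 0.488 and 0.573 reads per read of Slc3a2 with vehicle and 0.167, 0.153 and 0.15 with ALX-5407. Zfas1 had 5.67, 6.74 and 5.95 reads per read of Znfx1 with vehicle and 1.79, 2.0 and 1.46 with ALX-5407. The groups did not overlap for any of the 3 pairs. The 3 hosts had already fallen without overlap, as had 27.1% of all genes tested, and Slc3a2 and Znfx1 had risen without overlap. The ratios therefore restate those results. The smallest p that an exact permutation test of 3 against 3 libraries can give is 0.1, and no p is given for these ratios. Zfas1 and Znfx1 share 82 exon bases on opposite strands, 2.8% of the exons of Zfas1, while Gas5 and Snhg1 share no exon base with their neighbour.

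**Figure D3:**
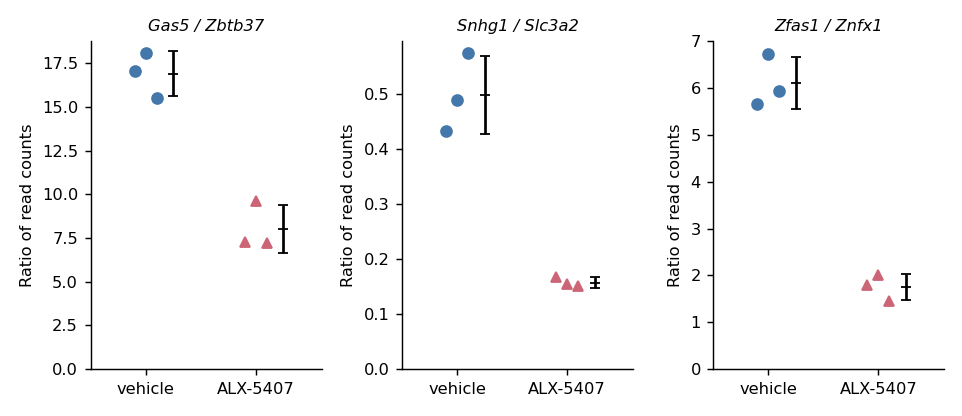
Reads on Gas5, Snhg1 and Zfas1 divided by reads on the gene that starts beside each on the other strand, in 3 vehicle and 3 ALX-5407 libraries (points), with the mean and SD as bars. Mean ratios went from 16.9 to 8.03 for Gas5 over Zbtb37, from 0.498 to 0.157 for Snhg1 over Slc3a2 and from 6.12 to 1.75 for Zfas1 over Znfx1.

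Other noncoding snoRNA hosts were called in part, where 23.2% of all genes tested were called lower and 24.5% higher. Of 15 listed, 13 were in the table and 8 were tested, of which 4 fell and 0 rose (edgeR; 0 also at an unadjusted p under 0.05 and in DESeq2 and limma-voom), with a median log2 fold change of -0.58. Epb41l4aos was at 26.8, 32.6 and 36.6 CPM with vehicle and 14.4, 14.6 and 9.93 CPM with ALX-5407. It fell by a log2 fold change of -1.30, with a standard error of 0.142 (adjusted p = 1.7e-06, edgeR), close to Zfas1. Snhg17 fell by 0.55 and Snhg20 fell by 0.62 on the log2 scale (adjusted p = 7.294e-05 and 0.004125, edgeR). Snhg11 was also called lower, but on 29, 13 and 20 reads against 12, 2 and 6. Dancr, Mir22hg, Snhg4 and Snhg14 had log2 fold changes of -0.61, -0.20, 0.10 and 0.19 and did not pass (adjusted p = 0.05941, 0.2325, 0.5706 and 0.635, edgeR). The counts of this list include Mir22hg, named as the host of a microRNA, and Snhg11, which the deposited annotation labels protein-coding.

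Protein-coding genes can also carry snoRNAs in their introns, and of 43 such hosts, all tested, 21 fell and 6 rose, with a median log2 fold change of -0.22. Ribosomal protein genes made up 18 of them, of which 17 fell and 0 rose (edgeR; 0 also at an unadjusted p under 0.05 and in DESeq2 and limma-voom), with a median of -0.48. Among the other 25, with a median of 0.09, 4 fell and 6 rose, near the shares of all genes tested. Those shares were 23.2% lower and 24.5% higher. The 4 that fell were Eif4a2, Taf1d, Tpt1 and Eef1b2, of which Taf1d and Eef1b2 are named here after their values were seen. The lists share genes, so their counts are not separate results. Tpt1, Eef1b2, Eef2 and Rack1 are also on the list of TOP mRNAs below, and Dkc1 and Nop56 on that of core proteins. Rcc1, a neighbour of Snhg3 above, is also among the 6 coding hosts that rose. Rpl27a, a large subunit protein, fell from 2119 ± 58.1 to 1087 ± 89.9 CPM (SD, n = 3 each), and Eif4a2, a helicase of translation initiation, from 698 ± 114 to 334 ± 10.6 CPM (SD, n = 3 each). Prrc2a rose from 454 ± 17.7 to 722 ± 13.6 CPM (SD, n = 3 each), which edgeR put at 0.67 on the log2 scale with a standard error of 0.0683 (adjusted p = 8.497e-07). 3 coding hosts passed a log2 fold change of -1, Eif4a2, Rpl23a and Rpl21, the last of which was named after its values were seen. Reads of ribosomal protein genes may be shared with processed pseudogenes, so their values are less certain.

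Proteins that bind or assemble snoRNAs were examined next. Of 8 core proteins, 0 were called lower (edgeR; 0 also at an unadjusted p under 0.05 and in DESeq2 and limma-voom) and Dkc1, the pseudouridine synthase, rose from 71.7 ± 6.12 to 94.8 ± 7.92 CPM (SD, n = 3 each). The count of core proteins called lower became 1 without Th1 replicate 1 and 2 without Th1 replicate 3. The median log2 fold change of the list was -0.12. Of 11 factors that assemble snoRNPs, 3 fell and 4 rose, near the shares of all genes tested (23.2% lower and 24.5% higher). Among these were Nufip1 and Znhit6, with log2 fold changes of -0.43 and -0.50, and Shq1, Pih1d1 and Naf1, with 0.73, 0.57 and 0.46.

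Of 22 nonsense-mediated decay genes, 6 fell and 7 rose, also near the 23.2% and 24.5% of all genes tested. The median log2 fold change of this list was 0.01. Upf1, the central helicase of the pathway, rose by a log2 fold change of 0.52 and Eif4a3, a core protein of the exon junction complex, by 0.62 (adjusted p = 1.531e-05 and 2.674e-06, edgeR). Nbas rose by 0.55. Upf3b and Casc3, which act at exon junctions, fell by 0.66 and fell by 0.55 on the log2 scale.

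TOP mRNAs other than those of ribosomal proteins fell in 13 of 23 cases and rose in 3, with a median log2 fold change of -0.23. The clearest falls were those of Naca, which chaperones nascent chains, Npm1, a nucleolar protein, Hnrnpa1 and Tpt1, with log2 fold changes of -0.86, -0.78, -0.67 and -0.63. Eif3f and Pabpc1 rose, with 0.41 and 0.31. Of 9 regulators of TOP translation, 1 fell and 6 rose, with a median of 0.51. Eif4ebp2, a repressor of cap-dependent translation, rose from 132 ± 11.4 to 264 ± 12.7 CPM (SD, n = 3 each). Tsc2, Mtor and Larp1, the protein that binds TOP sequences, rose by 0.57, 0.51 and 0.47 on the log2 scale, and Tsc1 fell by 0.32 on the log2 scale. Of 9 MYC network genes, 3 fell and 3 rose, with a median of -0.09. Beside the counts of these lists, 23.2% of all genes tested were called lower and 24.5% higher. Myc had a log2 fold change of 0.57 and its antagonist Mxd3 one of 1.70, while Mxd4 and Max had -0.63 and -0.48 (adjusted p = 1.624e-05, 2.206e-07, 3.882e-06 and 0.0001851, edgeR).

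**Figure D4:**
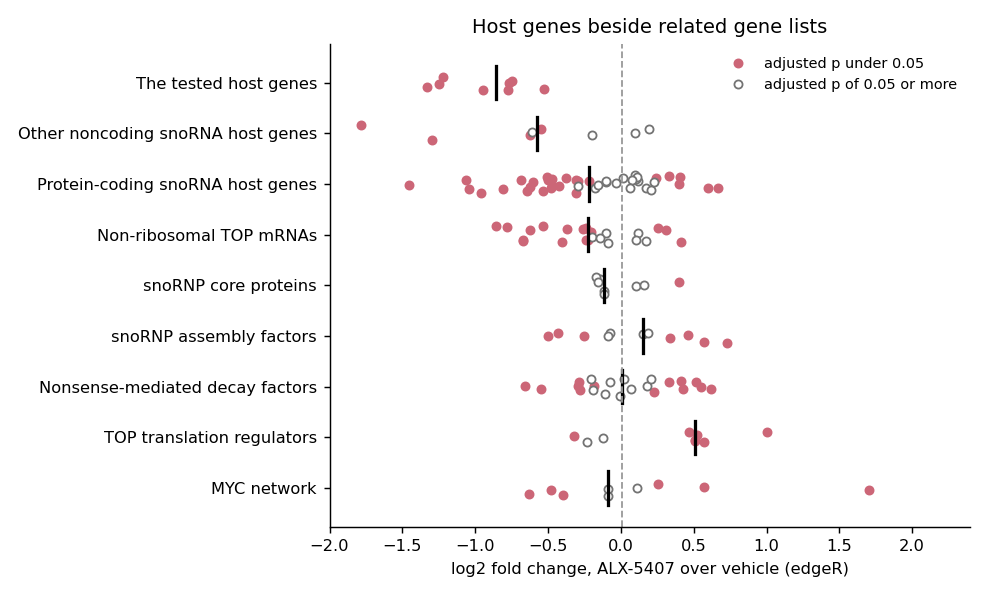
Log2 fold change of ALX-5407 over vehicle (edgeR) for each tested gene of 9 lists, with called genes filled, the median of each list as a bar and the median of all genes tested as a dashed line. The tested host genes, with a median of -0.86, lie wholly to the left, whereas the TOP translation regulators have a median of 0.51 and the nonsense-mediated decay factors a median of 0.01.

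Over the 6 libraries, the log2 CPM profiles closest to the mean profile of the host genes, among 12109 genes with a mean of 50 counts or more, were those of Fam96b, Gm9794, Rpl26, Dennd1c and Eci1, with Pearson's r from 0.998 to 0.999. Host genes themselves had r from 0.916 for Snhg15 to 0.998 for Zfas1. The points are the same 6 libraries in 2 groups, and r is given as a description. Rpl26 fell from 1449 ± 59.6 to 770 ± 52.7 CPM (SD, n = 3 each), and Gm9794 is a processed pseudogene.

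Depth was similar in all libraries, from 30801753 to 36727788 counts, with ribosomal RNA genes at 0.15% to 0.239%. The biological coefficient of variation was 0.0978. Slc6a9, which encodes the target of the compound, rose from 6.18 ± 1.25 to 15.8 ± 1.15 CPM (SD, n = 3 each; adjusted p = 1.492e-06, edgeR). The T cell markers Cd3d, Cd3e, Cd3g, Cd247, Cd4, Cd28 and Cd5 were detected in every library, with a summed level of 2254 to 2433 CPM with vehicle and 2315 to 2367 CPM with ALX-5407. Single T cell markers moved in opposite directions within this sum, since Cd4, Cd3d and Cd3g fell by 0.46, fell by 0.39 and fell by 0.35 on the log2 scale, while Cd28 and Cd5 rose by 0.52 and 0.24. Summed Th1 markers were at 759 to 805 CPM and 692 to 722 CPM, most of it from Il12rb2, at 475 ± 32.96 and 473 ± 8.86 CPM (SD, n = 3 each). Of the other Th1 markers, Stat4 fell from 63.9 ± 7.94 to 28.6 ± 0.354 CPM (SD, n = 3 each), with a log2 fold change of -1.16 (adjusted p = 5.55e-08, edgeR), within the range of the host genes. Il18r1 fell by 0.76 on the log2 scale (adjusted p = 1.202e-06, edgeR), Tbx21 rose by 0.34 (adjusted p = 0.0009407, edgeR), and Cxcr3 had 0.25 and did not pass. Beside the falls of the host genes, summed macrophage markers went from a range of 30.2 to 39.5 CPM to one of 16.2 to 16.8 CPM, carried by Cd68 and Ly6c2. Marco was at 0, Adgre1 at 0 to 1 reads and Lyz2 at 0 to 8 reads. Csf1r had 1, 3 and 0 reads with vehicle and 4, 0 and 15 with ALX-5407. Summed neutrophil markers went from 69.9 to 75.3 CPM to 24.1 to 31.6 CPM, nearly all from Ly6g, with S100a8, S100a9 and Elane at 0. B cell markers summed to 7.6 to 8.85 CPM and 11.5 to 14.4 CPM, CD8 T cell markers to 9.25 to 9.59 CPM and 6.71 to 8.87 CPM, dendritic cell markers to 4.05 to 4.87 CPM and 2.94 to 3.67 CPM, and erythroid markers to under 1 CPM throughout. NK cell markers summed to 1.92 to 3.41 CPM and 4.96 to 5.58 CPM, nearly all from Eomes, with Klrb1c at 4 to 9 reads with vehicle and 0 to 3 with ALX-5407 and Ncr1 and Klra8 at 0 to 4 reads. The part of these cells, or of the Th1 markers that moved, in the host gene values was not tested.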

How the data were processed

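RNA was sequenced from 6 Th1 cultures, 3 with vehicle and 3 with ALX-5407, grouped by the sample labels. The authors deposited raw read counts per gene for each library, without normalization or pooling. The submitters' processing notes name fastp, HISAT2 2.0.5, featureCounts 1.5.0-p3 and the build mm10. Strand use, annotation release and the treatment of multi-mapping reads are not given in the sources used here. The labels describe capture on poly-T beads, the methods depletion of ribosomal RNA. In R 4.3.3, edgeR 4.0.16 was run with filterByExpr (minimum count 10, minimum total 15), TMM scaling (factors 0.965 to 1.03), the quasi-likelihood test and Benjamini-Hochberg adjustment. CPM used TMM-scaled library sizes, and each standard error is the log2 fold change divided by the root of F. The chi-square per degree of freedom between replicates was 5.58 to 22.3, so each was counted separately. The procedure was tested on simulated data. Alternatives were other scalings and filters, DESeq2 1.42.0, limma-voom (limma 3.58.1), a replicate block, stricter calls and each library left out. Overlaps and snoRNA sequences came from GENCODE M21, whose merged exon lengths equal those in the table for all 9 genes, and promoters from RefSeq. Members, gene lists and tests were chosen with earlier results of these data known. Named genes were all members, genes that overlap a host or start within 1000 bases of its start, annotated snoRNAs, the 4 genes of each list with the smallest p plus 2 called in the other direction, the 5 genes with the most similar profile, and Slc6a9. Plots used matplotlib 3.10.9 in Python 3.11.15.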

Additional observations from a re-analysis of the deposited data

How the results depend on the processing

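All 112 alternative values, 14 for each of the 8 tested host genes, kept the direction and the call. The closest to the threshold was Snhg15, whose log2 fold change ranged from -0.65 to -0.47 and whose adjusted p reached 0.01486 (edgeR) without ALX5407 replicate 3, the library in which all 8 genes were lowest. Zfas1 ranged from -1.40 to -1.23 and Gas5 from -1.002 to -0.89. Host genes called lower numbered 3 with an added log2 fold change threshold of 1. Of 144 list counts under alternatives, 139 lay within 1.5 times the reported count. The exceptions were snoRNP core proteins called lower, 0 to 2 when each library was left out (1 without Th1 replicate 1 and 2 without Th1 replicate 3, against 0), and TOP translation regulators called lower, 1 to 2 when each library was left out (2 without Th1 replicate 3 and 2 without ALX5407 replicate 1, against 1) and 2 with the replicate block. The cause was not tested. Same-numbered libraries of the groups did not deviate together (r = -0.01, 0.004 and 0.063), so the numbers were not taken to pair the cultures. With a replicate block, 3833 genes were lower and 4071 higher, against 3695 and 3910, and Gas5 had a log2 fold change of -0.95. With total counts and no scaling factor, 3246 genes were lower and 4484 higher. Snhg15 and Snhg8 had the fewest reads and the largest standard errors of the 8.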
